A study of Mus musculus with 4 samples.

Results

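Complement was followed at the RNA level in colonic macrophages through 7 genes, taken as the rows of the single-cell count matrix for C1qa, C1qb, C1qc, C3, Cfb, Cfp and C3ar1. All 7 were found among the 11820 genes of the matrix, and a list of other complement genes added 19 that the matrix also held. The study compared colonic monocytes and macrophages of male C57/Bl6N mice, 6 to 7 weeks old, fed normal chow (2 mice, replicates 9 and 11) or a coconut-based high-fat diet (HFD, labelled 60%) for 1 week (2 mice, replicates 1 and 3). Cells of the lamina propria of each mouse were sorted as live CD45+Lin-CD11b+CD24- cells with Ly6C or CD64 on their surface, loaded in a single well per mouse and sequenced from the 3′ end with unique molecular identifiers (UMIs), so that each RNA molecule was counted once whatever the length of its gene. The groups differ in diet alone as far as the labels say, no genetic change is labelled, and n = 2 mice per diet throughout.

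C1q is the recognition molecule of the classical complement pathway and is assembled from the A, B and C chains encoded by C1qa, C1qb and C1qc. Unlike most complement proteins, which come largely from the liver, C1q is made mainly by macrophages and related myeloid cells, where it helps to tag dying cells and debris for uptake. C3 is the central component on which all complement pathways converge, factor B (Cfb) supplies the protease of the alternative pathway, properdin (Cfp) stabilizes the alternative pathway convertase, and C3ar1 encodes the receptor for the anaphylatoxin C3a. In the colon, Ly6C-high monocytes enter the lamina propria, acquire MHC class II and lose Ly6C as they become macrophages.

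The 3 C1q genes lie side by side on the minus strand of chromosome 4 (GRCm38, GENCODE M21), C1qb at chr4:136880129-136886187, C1qc at chr4:136889804-136893065 and C1qa at chr4:136895917-136898803, within 18675 bases. C3 lies at chr17:57203970-57228136 and Cfb at chr17:34856374-34862518, Cfp at chrX:20925454-20931555 and C3ar1 at chr6:122847138-122856161, all on the minus strand. The promoter windows of 4 members are shown because C1qb and C1qc moved together while C3 and C3ar1 moved in opposite directions with the diet. The sequence table matched 5 of the 7 members, without C1qa and Cfb. Each window holds 300 bases of RefSeq sequence (GRCm38.p6) around the RefSeq start, 5′ to 3′ along the gene, and all 4 genes are on the minus strand. Of the 300 bases, 37 (C1qb), 50 (C3) and 54 (C3ar1) lie inside the GENCODE gene, but 201 do for C1qc. Capitals mark matches on either strand to GAGGAA (a core read by PU.1 and related ETS factors), TGCTGA (a MAF half-site), TTCNNNGAA (a STAT site), the core of the interferon-stimulated response element or TTGCNNAA (a C/EBP core).
C1qb, chr4:136886151-136886450: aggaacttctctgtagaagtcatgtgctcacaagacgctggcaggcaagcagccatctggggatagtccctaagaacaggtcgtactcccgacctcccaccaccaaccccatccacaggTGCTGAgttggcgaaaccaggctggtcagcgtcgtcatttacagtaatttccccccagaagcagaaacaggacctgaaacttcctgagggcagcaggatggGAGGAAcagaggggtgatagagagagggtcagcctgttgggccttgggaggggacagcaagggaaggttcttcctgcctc
C1qc, chr4:136892865-136893164: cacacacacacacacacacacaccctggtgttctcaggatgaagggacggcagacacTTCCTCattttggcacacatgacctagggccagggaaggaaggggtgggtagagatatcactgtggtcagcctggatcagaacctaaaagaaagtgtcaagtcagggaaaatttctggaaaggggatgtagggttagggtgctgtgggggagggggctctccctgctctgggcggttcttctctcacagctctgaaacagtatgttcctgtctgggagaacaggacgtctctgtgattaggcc
C3, chr17:57228087-57228386: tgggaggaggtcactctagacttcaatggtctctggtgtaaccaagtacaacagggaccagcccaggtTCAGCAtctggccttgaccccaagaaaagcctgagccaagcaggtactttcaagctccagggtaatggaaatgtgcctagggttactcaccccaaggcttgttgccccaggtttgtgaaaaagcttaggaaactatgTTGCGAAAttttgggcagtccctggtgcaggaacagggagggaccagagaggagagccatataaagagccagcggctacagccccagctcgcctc
C3ar1, chr6:122856108-122856407: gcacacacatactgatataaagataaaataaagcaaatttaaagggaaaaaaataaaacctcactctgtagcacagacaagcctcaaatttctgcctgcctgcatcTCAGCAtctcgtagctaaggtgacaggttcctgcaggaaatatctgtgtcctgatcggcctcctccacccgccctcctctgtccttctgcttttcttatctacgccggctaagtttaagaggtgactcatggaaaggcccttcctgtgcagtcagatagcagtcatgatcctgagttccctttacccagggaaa

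GAGGAA stood once in the C1qb window, once in the C1qc window and 2 times in that of Cfp, against at least 1 match in 28.3% of 32851 promoter windows of the same length. TGCTGA stood once each in the windows of C1qb, C3 and C3ar1 (19.5% of all windows), and TTGCNNAA once in that of C3 (10.8% of all windows). TTCNNNGAA (8.3% of all windows) and the interferon-stimulated response element (3.44%) matched none of the 5 member windows read. These matches describe letters in the windows and are not measurements of binding.

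The 4 libraries held 904 to 2002 cells and 3824228 to 7947893 UMIs each, with medians of 3266 to 3926 UMIs per cell. Scrublet marked 38 cells (0.7011%) as doublets, and 23 cell barcodes occurred in 2 libraries. The defining macrophage markers Csf1r (551.7 to 880.2 UMIs per 1000000 UMIs of the same cells, abbreviated CPM) and Fcgr1, which encodes CD64 (143 to 227 CPM), were present in all 4 mice, whereas Itgam, which encodes the CD11b used in the sort, was at 4.395 CPM or less in every gate of every mouse. Loosely after the surface markers of the flow gates of the study, which are finer, cells were divided by their UMIs into gate 1 (2 or more Ly6c2 UMIs, MHC class II genes under 1% of the UMIs of the cell), gate 2 (2 or more Ly6c2 UMIs, MHC II at 1% or more), gate 3 (no Ly6c2 UMI, MHC II at 1% or more, at least 1 Ccr2 UMI) and gate 4 (as gate 3 without a Ccr2 UMI). Ccr2 was not used for gates 1 and 2, and gate 4 does not separate the subpopulations P4 and P5 of the study. In chow 9, chow 11, HFD 1 and HFD 3, gate 1 held 48, 54, 219 and 253 cells, gate 2 held 4, 28, 104 and 385, gate 3 held 244, 642, 246 and 340, and gate 4 held 504, 1086, 198 and 222. The 566 cells with exactly 1 Ly6c2 UMI and 277 cells with neither Ly6c2 nor high MHC II were set aside, and 266 cells (4.908%) lay within a factor of 1.5 of the MHC II threshold.

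Over all cells of each mouse the C1q chains were the most abundant members, and they were concentrated in the Ly6c2-negative, MHC II-high gates. In gate 4, C1qa reached 6811 and 7745 CPM in the chow mice and 5381 and 4742 CPM in the HFD mice. C1qb reached 5865, 6134, 4966 and 4388 CPM, and C1qc 6669, 6904, 4820 and 4301 CPM, in the same order of mice. The 3 chains together thus made up 1.935% and 2.078% of all UMIs of gate 4 on chow and 1.517% and 1.343% on HFD, with both HFD mice below both chow mice. In gate 1, C1qa stood at 167.8, 574.5, 111 and 155.2 CPM (chow 9, chow 11, HFD 1, HFD 3), below every mouse of gate 4.

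**Figure D1:**
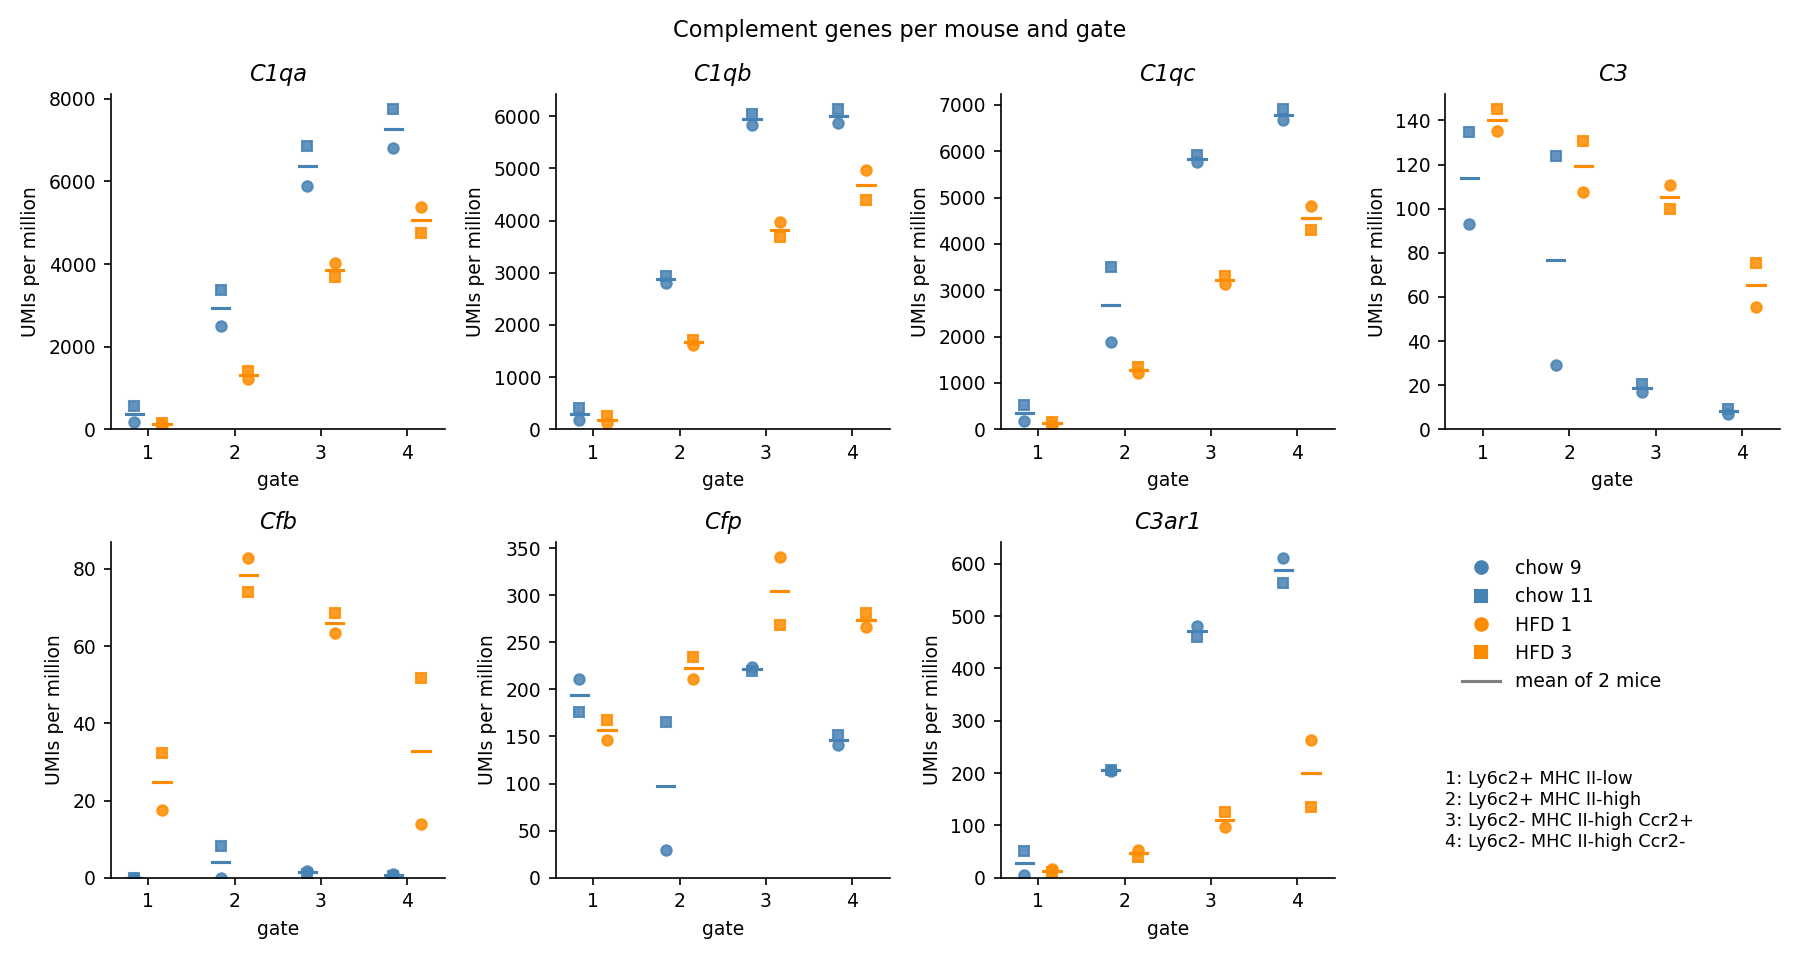
Levels of the 7 complement genes in CPM (vertical axes, each starting at 0) in gates 1 to 4, with 1 point per mouse (chow blue, HFD orange) and a bar at the mean of 2 mice. C1q chains and C3ar1 climb from gate 1 to gate 4, where the chow mice lie above the HFD mice, while C3 on chow runs from 93 and 135 CPM in gate 1 down to 6.8 and 9.4 CPM in gate 4; the gate 2 point of chow 9 rests on 4 cells.

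Across the gates, compared with a block for the mouse, C1qa was higher in gate 4 than in gate 1 by 4.99 ± 0.26 on the log2 scale (SE, edgeR quasi-likelihood test, adjusted p = 9.3e-10). C1qb (4.68 ± 0.22, adjusted p = 4e-10 by edgeR) and C1qc (4.92 ± 0.26, adjusted p = 1e-09) differed by like amounts. The receptor gene C3ar1 was higher by 4.09 ± 0.31 (edgeR, adjusted p = 7.1e-08), and C3 was lower by 1.79 ± 0.39 (adjusted p = 0.00222). This made 5 of 7 members past the threshold of an FDR of 1%, where 21.4% of 5576 genes passed, and the median log2 difference was 4.09 over the 7 members and 0.02 over all genes. Cfp (0.46, 95% interval 0.04 to 0.88) and Cfb (0.52, interval -0.32 to 1.36) did not pass. These differences are averages over both diets. Cfp in gate 1 was at 150.1% and 116% of its gate 4 level in the chow mice but at 55% and 59.55% in the HFD mice, so its direction differed with the diet. C3 was lower in gate 4 than in gate 1 in every mouse, but by more on chow than on HFD. Without chow 11 the C3 call was lost (-1.33, adjusted p = 0.0111 by edgeR).

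In the sums, the rise of C1q was already large at the step from gate 1 to gate 2, where Ly6c2 is still present and MHC II is high. It was not shared by most cells. Thinned to 1500 UMIs, the median gate 2 cell of chow 11, HFD 1 and HFD 3 held 3, 1 and 1 C1q UMIs, against 2, 0 and 1 in gate 1. Of these gate 2 cells 60%, 74.75% and 68.17% held under 5, and the mean of the others was 23.6, 19.16 and 14.93. Levels of C1qa in gate 2 were 2489, 3382, 1224 and 1415 CPM (chow 9, chow 11, HFD 1, HFD 3), of which the value of chow 9 comes from 4 cells. In a fit with the 3 gate 2 sums of at least 10 cells, C1qa, C1qb and C1qc were higher in gate 2 than in gate 1 by 3.11 ± 0.24, 3.15 ± 0.21 and 3.19 ± 0.24 on the log2 scale, and C3ar1 by 2.09 ± 0.37 and Cfb by 1.67 ± 0.37 (edgeR, adjusted p from 2e-09 to 0.00487). These 5 members stand against 5.75% of 5718 genes called. Cfb had 0 UMIs in gate 1 of both chow mice and 0 and 1 UMI in their gate 2, so its call rests on the HFD mice. Cfb lost the call without chow 11, HFD 1 or HFD 3 (adjusted p = 0.0113, 0.115 and 0.0192 by edgeR) and C3ar1 without HFD 3 (0.0116). From gate 2 to gate 3 the C1q chains rose by a further 1.499 ± 0.225 (C1qa), 1.28 ± 0.20 (C1qb) and 1.27 ± 0.22 (C1qc) and C3ar1 by 1.40 ± 0.26 (edgeR, adjusted p from 0.00103 to 0.00706), that is 4 members against 0.577% of genes. This second step depended on the Ly6c2 threshold and on single mice. When 1 Ly6c2 UMI sufficed for gates 1 and 2, the 4 differences were 0.39 to 0.49 and none was called, none was called without HFD 3, 2 were called without HFD 1 (C1qb and C3ar1), 1 was called with no replicate block for the mouse (C1qb), and C3ar1 was not called without chow 11 (adjusted p = 0.0567 by edgeR).

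Gates 3 and 4 are divided by Ccr2 alone, and none of the 7 members passed the edgeR threshold between them, where 0.269% of genes did. Unadjusted p-values under 0.05 were found for 4 of 7 members and 540 of 5576 genes, and DESeq2 called no member. The largest log2 differences, gate 4 minus gate 3, were those of Cfb (-0.98, 95% interval -1.68 to -0.29), C3 (-0.85, interval -1.60 to -0.10) and C3ar1 (0.59, interval 0.15 to 1.02). With single mice left out they ranged from -0.9758 to -0.4392 (Cfb), -1.106 to -0.739 (C3) and 0.3371 to 0.6918 (C3ar1). C1qa differed by 0.37 with an interval of -0.07 to 0.82.

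Low C1q values in gate 1 were set beside genes low in these cells, since free RNA released from broken cells can enter any droplet. C1qa in gate 1 amounted to 2.464%, 7.418%, 2.062% and 3.273% of its level in gate 4 of the same mouse. H2-Aa, low in gate 1 by the definition of the gate, amounted to 3.86%, 6.359%, 4.164% and 6.067%, and the resident macrophage genes Mrc1 and Pf4, chosen after their values were seen, to 2.19%, 5.437%, 3.027% and 10.64% and to 3.574%, 5.971%, 2.507% and 4.404%. The 15 resident macrophage genes measured ranged from Timd4 at 0% in all 4 mice to Fcgr1 at 108.7% to 195.6%, so the list also holds genes present in gate 1. The median over the listed genes with a value was 7.908%, 13.23%, 7.795% and 14.43%. C1q in gate 1 was thus near the level of H2-Aa, Mrc1 and Pf4, above that of Timd4 and below the list median in every mouse. Whether cells of gate 1 express C1q cannot be told from these values. C3 was different, at 1368% and 1435% of its gate 4 level in the chow mice and at 243% and 193.1% in the HFD mice. Empty droplets were not analysed here.

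The proportions of the 3 C1q chains varied little between mice within gates 3 and 4. In gate 4, C1qa made up 35.21%, 37.26%, 35.48% and 35.31% of the C1q UMIs (chow 9, chow 11, HFD 1, HFD 3), and C1qc 34.47%, 33.22%, 31.78% and 32.02%. C1qb made up 30.32%, 29.52%, 32.74% and 32.67% in gate 4 and 33.33%, 32.16%, 35.64% and 34.52% in gate 3, higher in gate 3 in all 4 mice and higher in both HFD mice than in both chow mice of either gate. In the Ly6c2-positive gates of the HFD mice the C1qb share was larger still, 39.81% and 38.33% in gate 2 (exact 95% intervals 37.63 to 42.01 and 37.16 to 39.51). In gate 1 it was 37.62% and 44.05% (intervals 32.15 to 43.34 and 39.43 to 48.76), and the interval of HFD 3 lies above the 34.99% of all cells of that mouse. In chow 11 the shares were 27.05% in gate 1 and 29.97% in gate 2, close to its gate 4. In chow 9 they were 34.88% in gate 1 (interval 24.92 to 45.92) and 39.18% in gate 2 (33.03 to 45.6), so the gate 2 interval lay above the gate 4 share in 3 of 4 mice, chow 9 among them. These intervals cover counting error only, and UMI counts compare chains only as far as the capture of each RNA is alike, which was not tested.

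Along the MHC II share of the cell, C1q was higher in the highest than in the lowest bins of every mouse, and lower on HFD in each bin. In cells with 1 to 2% of UMIs from MHC II genes, the 3 chains summed to 16375 and 15042 CPM in the chow mice but 1189 and 1662 CPM in the HFD mice. In cells with 4 to 8% they summed to 18082, 19102, 10754 and 9989 CPM, and at 8% or more to 20559, 21557, 17597 and 16138 CPM. Each HFD mouse was below either chow mouse in 7 of 7 bins, and the ratio between the diets was wider below 4% than above. The same holds for C3ar1 in 6 of 7 bins, whereas C3 and Cfb were higher in both HFD mice in 7 of 7 bins. For C3 the lowest bin was nearly tied, with 134.3 CPM in chow 9 against 139 and 137.5 CPM in the HFD mice, and chow 11 had 1 C3 UMI there. The bins were not separated by Ly6c2. In chow 9, chow 11, HFD 1 and HFD 3 the 1 to 2% bin held 21, 58, 57 and 119 cells. With the MHC II threshold at 2% in place of 1%, gate 2 went from 4, 28, 104 and 385 cells to 4, 20, 72 and 312. More Ly6c2-positive cells thus lay in the 1 to 2% bin on HFD, and their part in the gap between the diets was not tested. The 8 cells of chow 11 (under 0.25%) and 9 cells of chow 9 (0.5 to 1%) make up bins of under 20 cells.

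**Figure D2:**
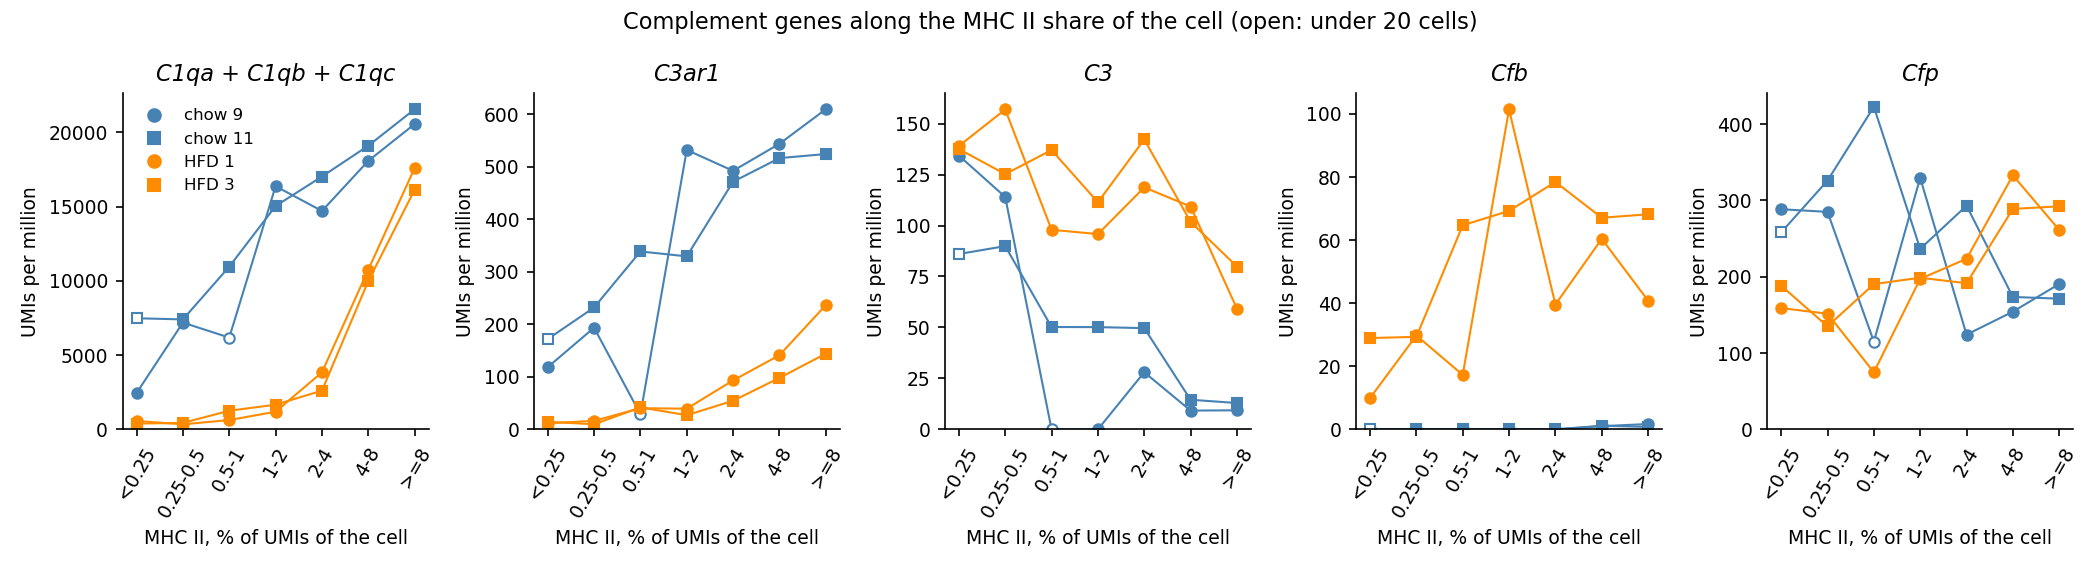
Summed C1q chains, C3ar1, C3, Cfb and Cfp in CPM (vertical axes) in 7 bins of the MHC II share of the UMIs of a cell (horizontal axis, H2-Aa, H2-Ab1 and H2-Eb1), 1 line per mouse, open symbols for bins under 20 cells. C1q reaches 20559 and 21557 CPM on chow against 17597 and 16138 CPM on HFD in the highest bin, where C3 is at 9.4 and 12.9 CPM on chow against 59.2 and 79.9 CPM on HFD.

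Along Ly6c2, C1q ran the opposite way. Among all cells, the summed chains went from 18212, 19818, 12169 and 11070 CPM in cells without a Ly6c2 UMI (chow 9, chow 11, HFD 1, HFD 3) to 1879, 3903, 639.5 and 1550 CPM in cells with 8 or more. The HFD mice were below the chow mice, without overlap, in 3 of 5 Ly6c2 bins for C1q and in 5 of 5 for C3ar1, and above them in 5 of 5 for Cfb. For C3 they were above in 3 bins, below in 1 and overlapping in 1. C3ar1 was nearly tied at 2 to 3 Ly6c2 UMIs, with 32.46 CPM in chow 9, from 2 UMIs, against 32.31 CPM in HFD 1. At 4 to 7 its chow values rest on 2 and 3 UMIs. On HFD, C3 went from 91.82 and 90.09 CPM without Ly6c2 to 127.9 and 123.4 CPM at 8 or more UMIs. On chow, C3 went from 14.58 and 14.41 CPM to 39.7 and 99.22 CPM, with 146.1 and 145 CPM at 2 to 3 Ly6c2 UMIs, above the 92.61 and 125.6 CPM of the HFD mice in that bin, and 69.2 and 196.7 CPM at 4 to 7. The chow bins with Ly6c2 hold 14 to 83 cells each and 3 to 17 C3 UMIs, and 4 of them hold under 20 cells (18, 19 and 15 cells of chow 9 and 14 of chow 11).

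The diet effect within a gate was clearest in gate 3, the Ccr2-positive MHC II-high cells. C3 stood at 16.8 and 20.7 CPM in the chow mice and 110.7 and 99.9 CPM in the HFD mice, so that the diets did not overlap and the gap between them exceeded the spread within each. It was 2.26 ± 0.24 higher on HFD on the log2 scale (edgeR quasi-likelihood test, adjusted p = 7.6e-05). C3ar1 moved the other way, from 482.1 and 460.6 CPM on chow to 96.3 and 125 CPM on HFD, a log2 change of -2.27 ± 0.17 (edgeR, adjusted p = 6.9e-06). The gene for the precursor of C3a and the gene for the C3a receptor thus changed in opposite directions in the same gate.

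Cfb was almost absent on chow. In gate 3 it was counted with 2 and 3 UMIs in the chow mice and 66 and 90 UMIs in the HFD mice, or 1.77, 1.05, 63.5 and 68.6 CPM. Over the mice of a diet the level was 52.8 times higher on HFD, with an exact 95% counting interval of 22.2 to 165 that does not cover the spread between mice. The fitted log2 fold change of 5.44 ± 0.42 (edgeR, adjusted p = 8.3e-06) depends on how the few chow counts are weighted. Cfb entered this test only through the HFD mice, with a UMI in 19.11% and 18.82% of their cells against 0.8197% and 0.4673% on chow (7.798%, 8.581%, 0% and 0% of the cells that could be thinned to 1500 UMIs), so its call is no support beyond the counts themselves.

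The C1q chains fell in gate 3. C1qa was measured at 5890 and 6846 CPM on chow against 4035 and 3687 CPM on HFD, C1qb at 5829 and 6050 against 3969 and 3687 CPM, and C1qc at 5767 and 5917 against 3132 and 3307 CPM. The log2 changes were -0.91 ± 0.13, -0.82 ± 0.12 and -1.04 ± 0.11 (edgeR, adjusted p = 5.59e-04, 6.06e-04 and 1.01e-04), and the HFD mice lay below the chow mice for each chain. In the same gate the 15 resident macrophage genes summed to 52325 and 57304 CPM on chow against 15208 and 14643 CPM on HFD, and the 9 monocyte genes to 1032 and 1072 against 4011 and 4303 CPM. The monocyte sum rests on few genes. By the definition of gate 3, Ly6c2 is absent and Ccr2 present in every cell, and most of the HFD sum came from Plac8 alone, whose values are given below. Cfp, at 224, 219.6, 340.8 and 268.3 CPM, did not pass (0.27, 95% interval -0.09 to 0.64, edgeR adjusted p = 0.305). In all, 6 of 7 members were called in gate 3, 2 higher (C3 and Cfb, the latter with the limit just given) and 4 lower on HFD, where 9.7% of 5174 genes were called. The median log2 change of all genes was -0.01. Without HFD 3, Cfb left the test and the other 5 members kept their calls.

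**Figure D3:**
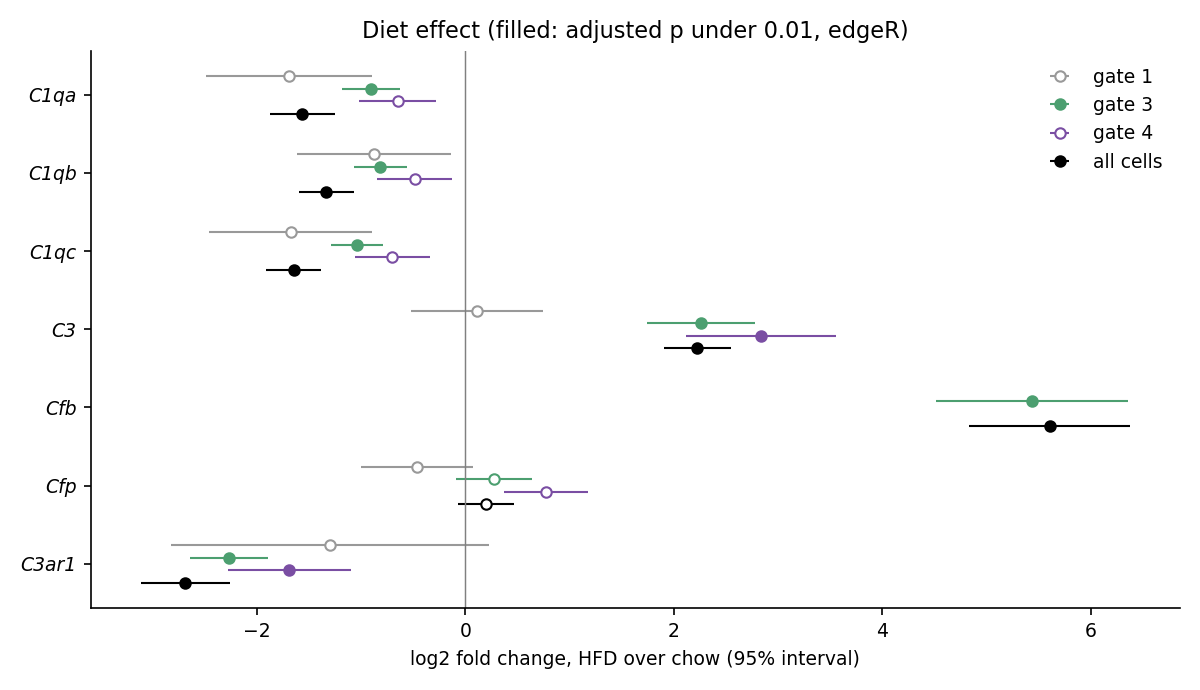
Log2 fold change of HFD over chow (horizontal axis) with its 95% interval for each member in gate 1, gate 3, gate 4 and all cells, from edgeR fits of 2 against 2 mice, filled where the adjusted p is under 0.01. C3 and Cfb lie to the right, C3ar1 and the C1q chains to the left; Cfb in gate 1 (no chow UMI) and in gate 4 (not tested) is not drawn.

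In gate 4, which holds the cells richest in C1q, the same directions were seen with fewer calls. C3 rose from 6.8 and 9.4 CPM to 55.6 and 75.2 CPM (log2 change 2.84 ± 0.33, edgeR adjusted p = 2.22e-04), and C3ar1 fell from 611.4 and 563.7 CPM to 262.6 and 136.2 CPM (-1.69 ± 0.27, adjusted p = 0.00215). These were 2 of 6 members tested, against 5.3% of 4810 genes. All 6 had an unadjusted p under 0.05, as had 1341 of the 4810 genes. The C1q chains did not pass at an FDR of 1%, with log2 changes of -0.65 ± 0.17 (C1qa, adjusted p = 0.0252), -0.49 ± 0.17 (C1qb, 0.0758) and -0.70 ± 0.17 (C1qc, 0.0163) by edgeR, although the diets did not overlap for any of the 3 chains. Cfp was at 140.8 and 151.7 CPM on chow against 265.7 and 281.5 CPM on HFD (0.77 ± 0.19, edgeR adjusted p = 0.0177), and the diets did not overlap. The resident macrophage genes of gate 4 summed to 76816 and 74739 CPM on chow against 36116 and 22304 CPM on HFD, and the monocyte genes to 123.6 and 160.6 against 1801 and 2359 CPM. Of these monocyte genes, Ly6c2 and Ccr2 are absent from gate 4 by definition. In gate 4 cells without a Lyve1, Cd163 or Cd4 UMI, the monocyte gene Plac8 alone was at 75.07 and 104.3 CPM on chow against 1399 and 1930 CPM on HFD.

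Cfb had a UMI in fewer than 5% of gate 4 cells and was left out by the filter. It was counted at 0.91, 0.48, 13.9 and 51.9 CPM, from 2, 2, 9 and 40 UMIs, and over the mice of a diet was 54.9 times higher on HFD (exact counting interval 20.1 to 210). The C3 result in gate 4 sits at the edge of the same filter, with a UMI in 5.07% of its cells. It passed only through the HFD mice (12.12% and 16.22% of cells, against 2.579% and 2.67% on chow, or 5.128%, 9.467%, 1.044% and 1.554% of cells thinned to 1500 UMIs), so its call is no support beyond its levels, and C3 fell below that 5% and left the test without HFD 1 or HFD 3, as it did without cells with epithelial or immunoglobulin, Plac8 or dendritic cell UMIs. The C3ar1 call was lost without chow 9 (adjusted p = 0.0378 by edgeR) or chow 11 (0.0289), and the C1qa and C1qc calls were gained without HFD 1 (0.00483 and 0.00303).

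In gate 1, the Ly6c2-positive MHC II-low cells, no member was called by edgeR or by DESeq2, where 0.62% of 4681 genes were called, and 4 members had an unadjusted p under 0.05, as had 552 of the 4681 genes. C3 was at 93 and 135 CPM on chow against 135 and 145 CPM on HFD, a log2 change of 0.11 with a 95% interval of -0.52 to 0.74. With TMM scaling these levels were 95.34 and 147.8 against 127 and 137.7 CPM, so the diets overlapped. C1qa was at 168 and 574.5 CPM on chow against 111 and 155 CPM on HFD (-1.70 ± 0.38, edgeR adjusted p = 0.0314). The diets did not overlap, but the chow mice differed more from each other than chow 9 did from HFD 3. The summed B and plasma cell genes (4 of 7 on the list are in the matrix) reached 52746 and 89315 CPM in gate 1 on chow and 10600 and 8428 CPM on HFD, and without cells rich in immunoglobulin or with epithelial UMIs the C1qa difference was -1.44 (edgeR adjusted p = 0.182). With single mice left out, the log2 difference ranged from -2.322 to -0.4668 for C1qa and from -2.254 to -0.624 for C1qc. The size of both thus depended on which mice were kept. Cfb was at 0 UMIs in both chow mice and at 17.6 and 32.3 CPM in the HFD mice. With a floor of 3 counts for the chow group as a whole (8.47 CPM), the HFD level was at least 2.89-fold higher.

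The diet effect on C3 differed in size between gates, and this difference was tested directly. In a joint test of the diet-by-gate terms over gates 1, 3 and 4 with a block for the mouse, C3 was called (edgeR, adjusted p = 6.51e-04), with a diet effect larger than in gate 1 by 2.12 in gate 3 and by 2.64 in gate 4 on the log2 scale. The other 6 members were not called, with Cfp nearest (adjusted p = 0.0652 by edgeR), and 1.09% of 5576 genes were. The C3 interaction was not called without chow 11 or without HFD 1. Its log2 term stayed between 2.555 and 2.774 with any single mouse left out.

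Gate 2 was not tested between diets with all 4 mice, since chow 9 had 4 cells there, under the minimum of 10. Its values were C3ar1 at 204.9 and 206.7 CPM on chow against 53.8 and 40.7 CPM on HFD, Cfb at 0 and 8.3 CPM against 82.8 and 73.9 CPM, and C1qb at 2811 and 2943 against 1617 and 1718 CPM. C3 overlapped between the diets, at 29.3 and 124 CPM against 107.7 and 130.9 CPM. The summed B and plasma cell genes of gate 2 were at 150252 and 30534 CPM on chow and at 174 and 111.2 CPM on HFD, and their part in these differences was not tested. When cells with 1 Ly6c2 UMI were counted into the gate, all 4 mice could be tested, and 5 of 7 members were called against 4.24% of 5094 genes, C1qa at -1.61, C1qb at -1.36, C1qc at -1.71, C3ar1 at -2.43 and Cfb at 4.11 (edgeR, adjusted p from 1.4e-05 to 0.00111). The added cells were 20 of 24 and 66 of 94 cells of this wider gate on chow, but 108 of 212 and 236 of 621 on HFD. Their C1q chains summed to 20310 and 18497 CPM on chow against 9155 and 9376 CPM on HFD. The part of this mix of cells in the calls was not tested. Cfb again entered only through the HFD mice, and its call is no support beyond its counts, which were 0 and 1 UMI on chow and 40 and 109 on HFD in gate 2 and 0 and 1 against 39 and 83 in the cells with 1 Ly6c2 UMI. By the same edgeR fit C3 (1.09, adjusted p = 0.0766) and Cfp (0.31, 0.465) were not called. With the 2-UMI gate and without chow 9, 4 of 7 members were called against 4.81% of 4994 genes, C1qa at -1.49, C1qb at -0.95, C1qc at -1.57 and C3ar1 at -2.32 (edgeR, adjusted p from 1.7e-21 to 7.2e-06), and Cfb (3.07, 0.0297), C3 (-0.16, 0.893) and Cfp (0.31, 0.702) were not. This fit has a single chow mouse, whose spread is assumed to be that of the HFD mice.

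Over all cells of a mouse the log2 changes of C1q and C3ar1 were larger than within gates 3 or 4, and gate 4 held 20.5% and 14.34% of the cells of the HFD mice against 55.75% and 54.25% of those of the chow mice. The summed C1q chains made up 1.72% and 1.906% of all UMIs on chow and 0.7472% and 0.7305% on HFD. The chains fell by 1.34 to 1.65 on the log2 scale and C3ar1 by 2.69 ± 0.18, while C3 rose by 2.23 ± 0.13 and Cfb by 5.61 ± 0.32 (edgeR, adjusted p from 1.79e-04 to 5.89e-04). This made 6 of 7 members against 16.2% of 4955 genes, and Cfp was not among them (0.20, 95% interval -0.07 to 0.47). Without HFD 3 the calls of C1qa and C1qb were lost (adjusted p = 0.0129 and 0.0134 by edgeR), and Cfb, which over all cells too passed the filter through the HFD mice (13.77% and 16.28% of cells against 0.4425% and 0.3497%), left the test. Fewer cells rich in a transcript and less of it per cell cannot be told apart in such whole-mouse sums.

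The lower C1q of the HFD mice within gates 3 and 4 was spread unevenly over cells. When every cell was thinned to 1500 UMIs, the median gate 4 cell held 29 and 31 C1q UMIs on chow and 26.5 and 17 on HFD, and the 90th percentile was 39.2 and 43 UMIs on chow and 44 and 41 on HFD. The upper ends of the distributions overlapped in gate 4 but not in gate 3, where the 90th percentile was 40 UMIs in both chow mice and 35 in both HFD mice. At the lower end in gate 4, 2.296% and 0.7254% of chow cells but 21.15% and 25.44% of HFD cells had under 5 C1q UMIs. In gate 3 the shares were 6.838%, 2.333%, 22.94% and 32.67%. Cells under 1500 UMIs were left out, which kept 479, 965, 156 and 169 cells of gate 4, and at 1000 UMIs, with 498, 1050, 181 and 208 cells kept, the gate 4 shares under 5 were 3.414%, 1.238%, 25.97% and 33.17%. Among gate 4 cells with 5 or more C1q UMIs the mean was 29.25 and 31.27 on chow and 30.33 and 24.73 on HFD, and the diets overlapped. In gate 3 these means were 27.15 and 27.96 on chow and 21.48 and 20.91 on HFD, and the diets did not overlap. These last means are taken over cells chosen by their C1q, the quantity compared.

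**Figure D4:**
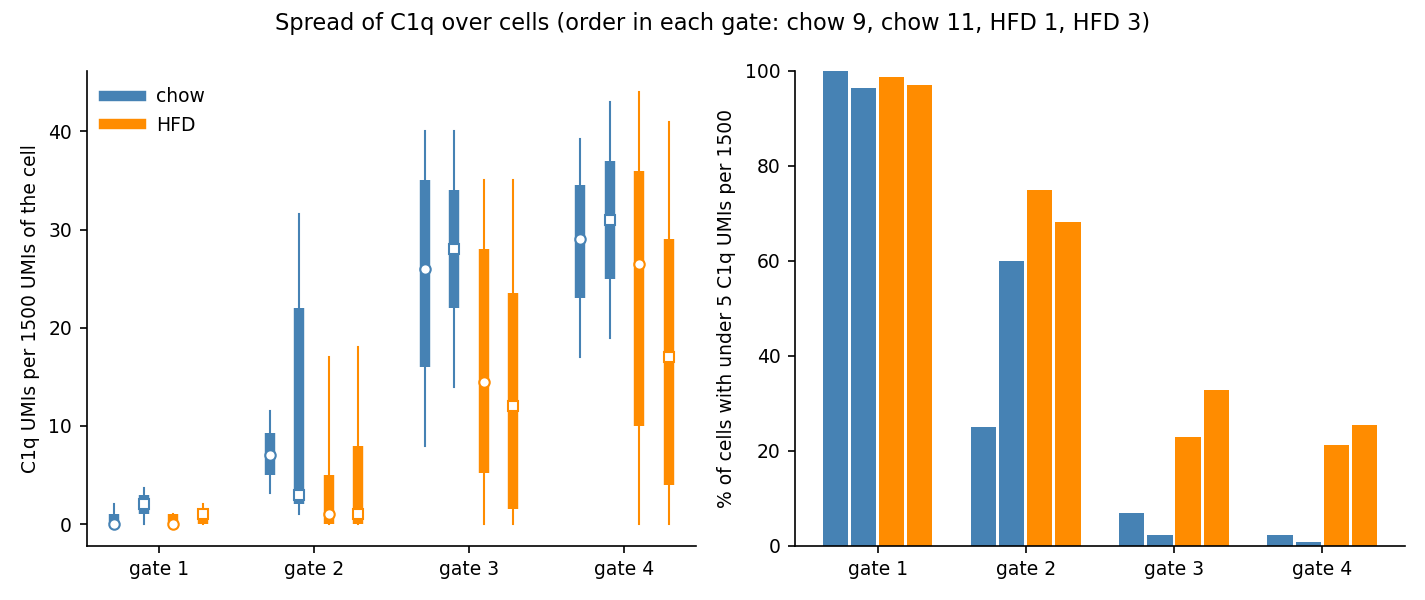
Left, C1q UMIs (C1qa, C1qb and C1qc) per 1500 UMIs of a cell in gates 1 to 4 for each mouse, with the median (symbol), the 25th to 75th percentile (thick bar) and the 10th to 90th percentile (thin line). Right, percentage of cells with under 5 such UMIs, which in gate 4 is 2.296% and 0.7254% on chow and 21.15% and 25.44% on HFD.

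The C1q-poor cells of gate 4 in the HFD mice differed from their other cells in several marker lists. In HFD 1 and HFD 3, the 33 and 43 cells with under 5 C1q UMIs held 3396 and 3239 CPM of the 15 resident macrophage genes measured, against 47622 and 28517 CPM in cells with more C1q. Monocyte genes (9 of 9 measured) stood at 4252 and 5911 CPM against 967.2 and 1191 CPM. Most of these sums came from Plac8 alone, at 3268 and 4803 CPM against 676.6 and 830.1 CPM, and Ly6c2 and Ccr2 are absent from gate 4 by definition. Dendritic cell genes (6 of 6 measured, among them Cd209a and Flt3) stood at 770.6 and 488.2 CPM against 62.9 and 35.9 CPM. On chow 11 and 7 such cells were found in gate 4, with 23598 and 30188 CPM of the resident macrophage genes, 2219 and 2967 CPM of the monocyte genes and 672.3 and 52.05 CPM of the dendritic cell genes, so the C1q-poor chow cells held more of the resident genes than those of the HFD mice.

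The fits were repeated without cells holding such markers, which was decided once the data had been looked at. Over gate 4, the summed dendritic cell genes were at 27.3 and 27.9 CPM in the chow mice and at 227 and 163 CPM in the HFD mice, and without every cell holding a UMI of these genes the C1qa change was -0.47 (95% interval -0.87 to -0.08, edgeR adjusted p = 0.142) and the C3ar1 change -1.57 (0.0138), so that no member was called by edgeR, where 1.69% of genes were, and 4 of the 5 members tested and 1060 of 4737 genes had an unadjusted p under 0.05. In gate 3, under the same restriction, all 6 calls of members were kept, against 9.63% of genes, with C1qa at -0.82 (edgeR adjusted p = 7.33e-04). Plac8, a monocyte gene, was at 76.1 and 120.3 CPM in gate 3 on chow against 2494 and 2674 CPM on HFD, so a choice of cells by Plac8 is a choice by a gene that itself differs between the diets. It kept 201 and 492 chow cells but 20 and 26 HFD cells of gate 3. In these cells C3 (3.31, edgeR adjusted p = 7.8e-07) and C3ar1 (-1.77, 1.3e-04) were still called and the C1q chains were not (-0.30 to -0.48, adjusted p from 0.216 to 0.526), against 1.34% of genes called. In gate 4 cells without a Plac8 UMI (432, 892, 44 and 34 cells) no gene was called by edgeR, with 620 of 4724 genes at an unadjusted p under 0.05, and C3ar1 stood at -1.74 (0.114).

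Within gate 4, cells marked by Cd4, a gene of long-lived resident macrophages of the gut, had no less C1q on HFD. Those with a Cd4 UMI and no Lyve1 or Cd163 UMI (158, 289, 16 and 11 cells) summed to 19844, 21078, 23784 and 21816 CPM of the C1q chains, higher in each HFD mouse than in either chow mouse, on 16 and 11 cells. Those with a Lyve1 or Cd163 UMI (18, 86, 4 and 2 cells) summed to 20446, 23005, 8983 and 25523 CPM, with the HFD mice on either side of the chow mice. Gate 4 cells without a UMI of Lyve1, Cd163 or Cd4 summed to 18950, 20339, 14357 and 12739 CPM. In all gate 4 cells with a UMI of at least 1 of these 3 genes the log2 change was -0.07 for C1qa (95% interval -0.49 to 0.35), 0.03 for C1qb (-0.40 to 0.45) and -0.20 for C1qc (-0.63 to 0.22), with 20 and 13 HFD cells. C3ar1 in the Cd4-marked cells was at 606.9 and 589.1 CPM on chow against 576.1 and 258 CPM on HFD.

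Cell by cell in gates 3 and 4, the C1q chains were tied more closely to each other than to the other members. Within gate 4 of a mouse the chains correlated at 0.553 to 0.878 (Pearson's r over 198 to 1086 cells), and in gate 3 at 0.642 to 0.869. In gate 1 they correlated at 0.0212 to 0.394 with each other and at -0.225 to 0.283 with the other members. C1qa and C3ar1 correlated at 0.194 to 0.427 in gate 4 and 0.175 to 0.281 in gate 3. The values of C3 with C3ar1 were -0.158 to -0.0412 in gate 4 and -0.147 to -0.0733 in gate 3. With C3, Cfb and Cfp the C1q values differed between mice, C1qa and C3 at -0.256 in gate 3 of chow 9 but 0.0125 in that of HFD 3, and C1qa and Cfp at -0.213 in gate 4 of HFD 1 but 0.12 in that of chow 11. These values are descriptions over cells that share a library and its depth, and correlations of sparse counts near 0 are no finding.

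**Figure D5:**
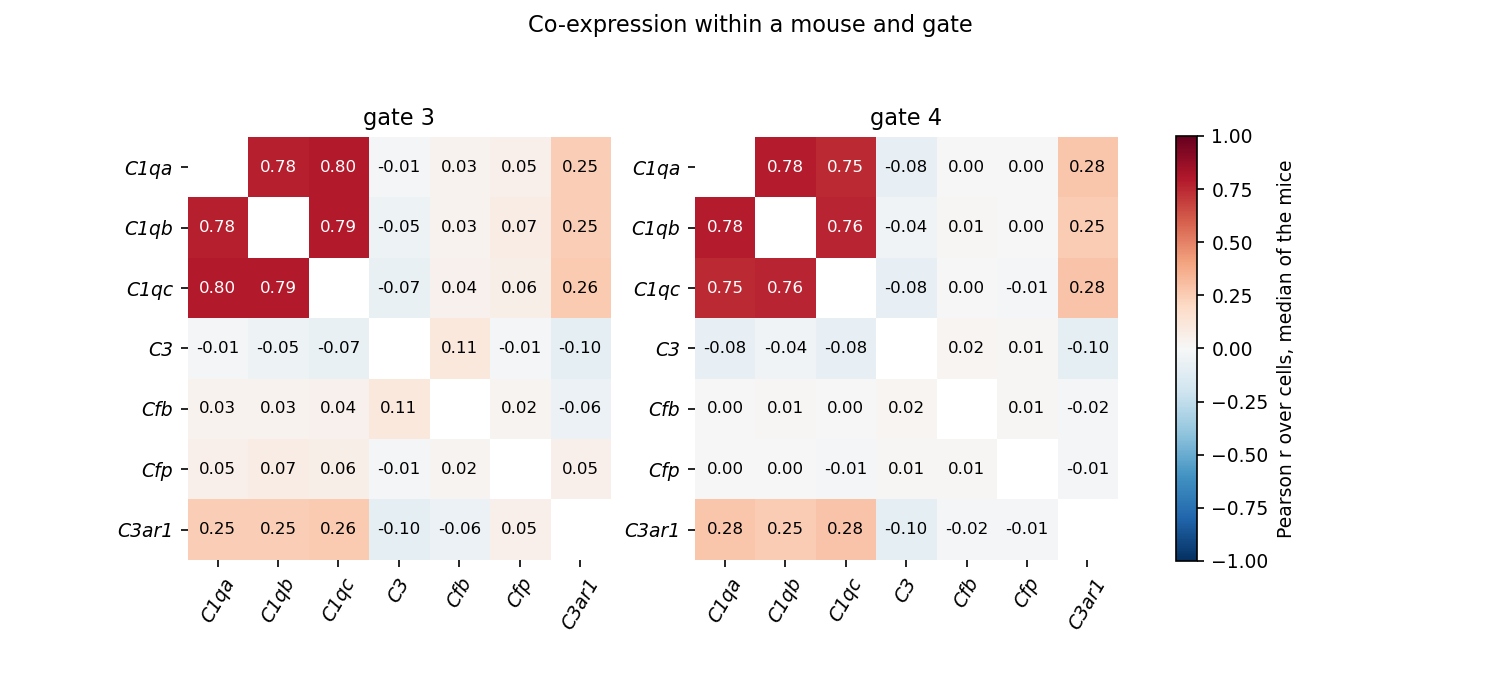
Pearson correlation over cells of log2(counts per 10000 + 1) for each pair of members, as the median of the mice with a value, in gate 3 and gate 4. C1q chains correlate with each other at 0.747 to 0.797 and with C3ar1 at 0.246 to 0.284, and all pairs of a C1q chain with C3, Cfb or Cfp lie between -0.0831 and 0.0735.

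Thinned to 1500 UMIs, cells of gates 3 and 4 with a C3 UMI held 0.80, 0.79, 0.61 and 0.77 times the C1q of cells without one (chow 9, chow 11, HFD 1, HFD 3), from 11, 28, 36 and 57 such cells. Cells with a C3ar1 UMI held 1.07 times as much C1q in both chow mice and 1.52 and 1.82 times as much in the HFD mice. For Cfb, with 19 and 36 such cells, the HFD ratios were 0.74 and 0.73, and for Cfp the 4 ratios were 1.0, 1.06, 0.86 and 0.85. Cells with a C3 UMI thus held less C1q, and cells with a C3ar1 UMI more, in all 4 mice. At 1000 UMIs the C3 ratios were 0.96, 0.85, 0.75 and 0.79, the first from 6 cells.

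The balance between C1q and the other components shifted with gate and diet. In gate 4, 2839 and 2217 C1q UMIs were counted per C3 UMI on chow and 272.7 and 178.5 on HFD. In gate 3 the ratios were 1040 and 908.9 against 100.6 and 107, and in gate 1 they were 5.73, 11.2, 2.46 and 3.88. Per Cfp UMI, gate 4 held 137.4 and 137 C1q UMIs on chow and 57.1 and 47.7 on HFD, and gate 3 78.1 and 85.7 against 32.7 and 39.8. Per C3ar1 UMI the change was the other way, from 31.6 and 36.9 to 57.8 and 98.6 in gate 4. With 2 mice per diet, no exact permutation test of a ratio can give a p below 0.33, so these ratios are given without a test.

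The members also differed in where their RNA lay. On chow, 65.5% and 57.6% of all C1qa UMIs of a mouse came from gate 4 cells, and on HFD 34.5% and 26.3%. For C3ar1 the shares were 67.6%, 59.2%, 41.5% and 24.3%. Gate 1, in contrast, supplied 18.8%, 16.2%, 28.7% and 18.8% of the C3 UMIs but 1% or less of C1qa. Of the Cfb UMIs of the HFD mice, 172 and 354 in number, gate 1 held 9.3% and 7.34% and gate 2 held 23.3% and 30.8%. The C1q chains and C3 thus drew on the gates in different proportions.

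Over the 16 sums of mouse and gate, each gene's levels as log2(CPM + 1) were set beside those of 5690 other genes that passed the filter in at least 1 gate. C1qa was most like Cd63, a tetraspanin of late endosomes (r = 0.988), Lgmn, the lysosomal protease legumain (0.972), and Tent5c (0.972). C1qc shared Cd63 (0.984) and Lgmn (0.976) and was followed by Frmd4b (0.97), while C1qb was nearest to H2-Eb1 (0.986), a gene of the gates themselves, Cd63 (0.983) and Cd74 (0.979), the invariant chain. C3ar1 was nearest to Mrc1, the mannose receptor (0.973), Tmem37 (0.97) and Lilra5 (0.967). C3 was nearest to Itgb7 (0.952), an integrin chain of gut-homing leukocytes, Slc16a3 (0.945) and Ms4a4c (0.935), Cfb to Uqcr10 (0.976), Cox5a (0.967) and Il1rn (0.956), and Cfp to Clec10a (0.962), Csrp1 (0.954) and Aasdhppt (0.946). The sums of a mouse share its library, and gate 2 of chow 9 is a sum of 4 cells.

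Of the 19 other complement genes, 9 passed the filter in at least 1 gate, and 3 of those were called for diet in at least 1 gate. C5ar1, the receptor for C5a, fell on HFD in gate 3 from 562.6 and 568.3 CPM to 183.9 and 206.6 CPM (log2 change -1.72, edgeR adjusted p = 1.7e-05) and in gate 4 from 783.6 and 749.8 CPM to 434.1 and 245.2 CPM (-1.30, 0.0057). Cd93, a receptor long linked to C1q, fell in gate 3 from 224.7 and 295 CPM to 81.8 and 42.7 CPM (-2.28, edgeR adjusted p = 1.9e-04) and in gate 4 from 201.2 and 302.2 CPM to 114.3 and 54.5 CPM (-1.72, 0.0049). Itgb2, the shared beta chain of complement receptors 3 and 4, rose in gate 3 from 177.8 and 170.1 CPM to 342.7 and 314.1 CPM (0.73, edgeR adjusted p = 0.0065). C5ar2, the second C5a receptor, was at 8.846, 17.19, 20.22 and 6.099 CPM in gate 3, where the diets overlapped, and at 23.17, 29.81, 13.9 and 3.891 CPM in gate 4 (log2 change -1.77, edgeR adjusted p = 0.0354).

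By count, 3 of 8 other complement genes tested passed in gate 3 (1 higher, 2 lower), against 9.7% of all genes, 2 of 8 in gate 4 (both lower), against 5.3%, and 3 of 7 over all cells (1 higher, 2 lower), against 16.2%. In gate 1 none of 6 passed by edgeR or DESeq2 (1 at an unadjusted p under 0.05), against 0.62%. Between gates 4 and 1, 6 of 9 passed, against 21.4% of all genes, 5 higher in gate 4, with Itgax, the alpha chain of complement receptor 4, higher by 4.03 and C5ar1 by 2.49. Calr, C1qbp, Cr1l, C5ar2 and Itgax were among those not called for diet in any gate. The C1-complex proteases were scarce, with C1ra at 18.7 CPM or less and C1s1 at 2.034 CPM or less in every gate of every mouse, and C4b was at 12.4 CPM or less.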

How the data were processed

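Single cells of the colonic lamina propria of 4 mice (chow replicates 9 and 11, HFD replicates 1 and 3) were measured with a 3′ droplet kit. The deposited counts are UMIs per gene and cell, made by the authors with Kallisto 0.46.0 and BUStools 0.39.2 on mm10 and filtered by them for library size, detected features, mitochondrial reads, rare genes and cells annotated as other types. Groups came from the sample labels, and each mouse is 1 replicate. The genes, lists, gates and tests were chosen with earlier results of these data known.

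UMIs were summed per mouse and gate (at least 10 cells in every mouse), kept where CPM passed 1 in 2 sums and 5% of cells had a UMI, scaled by TMM and tested with edgeR 4.0.16 (quasi-likelihood, Benjamini-Hochberg FDR 1%, R 4.3.3). Gate comparisons carried a block for the mouse, since gates share animals. DESeq2 1.42.0 was an alternative. Doublets were marked with Scrublet in scanpy 1.11.5 and kept. C1q UMIs per cell were counted in cells thinned to 1500 UMIs, and the detection filter and the shares given beside it in unthinned cells. Of the genes, 11819 matched the annotation. Genes named in the text are the members, the listed complement genes and the 3 genes most like each member. The genes that define the gates and genes of the cell type marker lists are named as well. Depth ranged from 3824228 to 7947893 UMIs per mouse, and counting intervals cover counting error only. The script was tested on simulated data. Alternatives left out each mouse, changed the scaling, filter, test and gate thresholds, or left out cells with markers of other types. One gene of the list of other complement genes is not reported here by name.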

Additional observations from a re-analysis of the deposited data

Results flagged for a closer look

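The diet effect on C3 differed between gates 1, 3 and 4 in the joint interaction test (edgeR, adjusted p = 0.000651). The log2 diet effect was 0.11 in gate 1, 2.26 in gate 3 and 2.84 in gate 4, and C3 was higher in both HFD mice than in both chow mice of gates 3 and 4. In gate 1 the diets overlapped once levels were scaled by TMM (95.34 and 147.8 CPM on chow, 127 and 137.7 CPM on HFD). The call was lost without chow 11 or without HFD 1, while the log2 term stayed between 2.555 and 2.774 with any single mouse left out. In gate 4 the call rests on 15 and 39 C3 UMIs on chow. No group had the 4 samples needed to look for a single mouse that stands apart.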

How the results depend on the processing

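Of 836 log2 fold changes of members recomputed under the alternatives, 775 kept their direction and side of the threshold, 19 became calls, 31 lost a call and 11 reversed. The order of the diet means in member levels was kept in 35 of 35 levels under TMM scaling and in 27 of 28 detection shares at 1000 UMIs per cell. Without TMM the median log2 change of all genes in gate 3 went from -0.01 to 0.17, and the split of calls from 238 higher and 264 lower to 348 and 167. With 2 mice per diet, leaving one out leaves an arm with 1 sample, whose spread is assumed to be that of the other arm. Depth limits C3 and Cfb, which on chow rest on few UMIs.

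The count of genes called for diet in gate 1 (29) was 82 with a likelihood-ratio test, 116 with no filter, 46 at an MHC II threshold of 2%, 9 without cells with epithelial or immunoglobulin UMIs and 18 to 39 without single mice, and the count of members (0) was 2 with the likelihood-ratio test, 2 with no filter and 0 to 2 without single mice. In gate 3, cells without Plac8 gave 68 genes (502) and 2 members (6), and Cfp reversed to -0.57. In gate 4 the genes (255) were 529 with the likelihood-ratio test, 684 with no filter, 0 in cells without Plac8, 80 in cells without a dendritic cell marker, 25 in cells with Lyve1, Cd163 or Cd4, 630 with gates 3 and 4 together and 48 to 475 without single mice. The members (2) were 4, 5, 0, 0, 0 and 5 under those settings in that order, 1 without epithelial or immunoglobulin cells and 1 to 3 without single mice. C1qb (0.026) and Cfp (-0.061) reversed in the cells with Lyve1, Cd163 or Cd4. Over all cells the genes (805) were 1307 with the likelihood-ratio test, 1218 with no filter and 119 to 811 without single mice, and the members (6) were 3 to 6.

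Between gates 4 and 3 the genes (15) were 88 with the likelihood-ratio test, 73 with no filter, 3 to 9 without single mice and 9 with no replicate block for the mouse. Without that block 1110 genes (1196) were called between gates 4 and 1, and no call of a member changed in these 2 comparisons. The interaction genes (61) were 170, 178 and 27 to 45 under the likelihood-ratio test, no filter and single mice left out, and the members (1) were 0 to 1. Between gates 2 and 1 the genes (329) were 708 with Ly6c2-positive at 1 UMI and 116 to 271 without single mice, with 3 to 5 members (5), and between gates 3 and 2 (33) they were 4 and 7 to 29, with 0 and 0 to 4 members (4). With no replicate block the latter gave 20 genes and 1 member, and the former 246 genes and the same 5 members. Without single mice, C3 in gate 1 ranged from -0.15 to 0.46 (-0.0099 with Ly6c2-positive at 1 UMI), and the interaction terms of C1qa from -0.17 to 1.47, C1qb from -0.39 to 1.00, with -0.27 without HFD 1, C1qc from -0.12 to 1.43 and C3ar1 from -2.87 to 0.33. The Cfb interaction was 0.94 by DESeq2. The causes were not tested. No paired analysis was possible between the diets because chow and HFD mice share no replicate numbers.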
